A study of Homo sapiens with 9 samples.

Results

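Expression is described here for 10 genes of actin-binding or actin-regulating proteins whose transcripts were low after transfection of miR-200c: MSN, CFL2, FHOD1, PPM1F, TAGLN, CNN3, PLS3, MARCKS, FLNA and CAPZA2. The 10 genes were matched by their current or earlier symbol to the platform annotation, which gave 14 probes of the 24460 on the array. All 14 passed the filter on dim probes, among 17684 that did. MSN, TAGLN, PLS3 and CAPZA2 had 2 probes each, and the brighter one stood for the gene among the 16072 features tested. The genes were chosen because they were lower on the miR-200c arrays, so their values there are a description and are given with no test.

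Every group, the control included, was RKO, an established line from a human colon carcinoma, carrying a disruption of DICER exon 5. DICER cuts precursor RNAs into mature miRNAs, so miRNA activity in such cells comes mainly from what is transfected. Double-stranded oligonucleotides were delivered with a cationic lipid and RNA was taken after 48 h. The 9 one-colour arrays were miR-200c methylated and native, miR-21 methylated and native, let7a methylated and native, miR-17 methylated and native, and 1 negative control. The labels name neither the methylated base nor the strand. No group had a second array and nothing says whether the disrupted line was 1 clone, so a difference between single arrays has no replicate check. The arrays read the pooled RNA of a culture, and fewer cells with a transcript cannot be told apart from less transcript per cell.

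Actin filaments grow and shrink at their ends, are severed, capped, bundled and tied to the plasma membrane, and each step has its own binding proteins. Epithelial cells that become migratory rebuild these filaments into stress fibres and protrusions. The miR-200 family is best known for repressing the transcription factors ZEB1 and ZEB2, and several actin regulators are also reported targets of it. A miRNA finds its targets mainly through its seed, bases 2 to 8 from the 5′ end, which pairs with the target transcript.

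The mature sequences below are shown because the seed sets which transcripts each oligonucleotide could pair with. They are from RefSeq (GRCh38.p14), with the seed in capitals, and the arm usually loaded is given for each miRNA, plus the other arm of miR-200c and the related miR-200b.
hsa-miR-200c-3p: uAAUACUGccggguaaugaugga
hsa-miR-200c-5p: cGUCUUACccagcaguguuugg
hsa-miR-200b-3p: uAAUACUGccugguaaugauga
hsa-miR-21-5p: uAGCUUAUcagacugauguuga
hsa-let-7a-5p: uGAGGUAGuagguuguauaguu
hsa-miR-17-5p: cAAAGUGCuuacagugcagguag
The miR-200c-3p sequence lies in the MIR200C gene at chr12:6963742-6963764 on the plus strand. Its seed is that of miR-200b-3p (chr1:1167160-1167181, plus strand) and differs from the seeds of miR-21-5p (chr17:59841273-59841294), let-7a-5p (chr9:94175962-94175983 for MIRLET7A1) and miR-17-5p (chr13:91350618-91350640). Target sites in the 10 transcripts were not analysed here.

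Some facts of the arrays touch every result below. Blank spots averaged 31.4 to 46.8 intensity units per array, and 69.4% to 78.2% of probes exceeded the blank mean by more than 2 SD, the limit for detection. With each gene centred over the methylated and over the native arrays, the profiles of the 2 miR-200c arrays had a Pearson r of 0.70 across genes and those of the 2 miR-21 arrays 0.46. The let7a-labelled methylated array had r = -0.22 with let7a native but 0.69 with miR-17 native, and the miR-17-labelled methylated array had r = -0.16 with miR-17 native but 0.56 with let7a native. For these miRNAs the methylated and the native labels go against each other, and which is right was not tested. Genes are not independent replicates, so r is a description. Of the results that rest on the 2 methylated arrays in doubt, some are also given without them. The others include both arrays under their labels. ZEB1 lay at 7.92 and 7.78 (log2 intensity) on the miR-200c methylated and native arrays and at 9.01 to 9.68 on the other 7. Of 8 colorectal epithelial markers 7 had a named probe and 6 were detected on all 9 arrays. Marker sums here are raw intensities, neither background corrected nor normalized, so each array's background is part of them, also from undetected probes. For the epithelial markers the sum was 3407 to 3920 on the miR-200c arrays and 1823 to 3077 on the others, mostly from KRT18. For 6 smooth muscle markers it was 426 to 442 against 389 to 541. The part of these in the results was not tested. Of the smooth muscle markers ACTA2, DES and SMTN were detected on all 9 arrays, and MYH11, CNN1 and ACTG2 were not well above background on any. Of 5 fibroblast markers DCN was detected on all 9, and COL1A1, COL1A2 and LUM on none, with a sum of 357 to 372 on the miR-200c arrays and 307 to 396 on the others. Of 3 blood markers CD3E and CD68 were detected on all 9 and PTPRC on none, with a sum of 9604 to 11324 on the miR-200c arrays and 7053 to 10263 on the others, nearly all from CD68. Of 3 endothelial markers 2 had a named probe and neither was detected on all 9, with a sum of 90.1 to 95.2 on the miR-200c arrays and 77.8 to 110.8 on the others.

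Among the proteins that sever filaments or act on their ends, CFL2 was the member farthest below the control. CFL2 encodes cofilin 2, which severs and disassembles actin filaments. Its log2 intensity was 7.14 on the miR-200c methylated and 7.19 on the miR-200c native array, against 9.40 on the negative control. That is 20.8% and 21.6% of the control level. It stood at 8.20 on the let7a-labelled methylated array and at 7.98 on miR-17 native, and on the other 4 miRNA arrays at 9.16 to 9.33. The CFL2 values thus fell into 3 levels, with the miR-200c pair lowest and the let7a-labelled methylated array beside miR-17 native in between.

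CAPZA2, a subunit of the protein that caps the fast-growing filament end, was read by 2 probes that differed. The brighter probe gave 9.42 on the miR-200c methylated array and 8.81 on the native one, against 10.69 on the control. The other probe gave 9.38 and 9.39 on the same arrays, against 10.16 on the control. The 6 remaining arrays lay between 10.13 and 10.15 with that second probe and between 10.21 and 10.67 with the first. Both probes placed the miR-200c arrays below the other 7, but only the brighter one placed the methylated array above the native one.

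FHOD1, a formin that caps and bundles filaments, was dim. Its log2 intensity was 6.30 on the miR-200c methylated and 6.42 on the miR-200c native array, against 6.74 on the control and 6.66 to 7.07 on the other 6. On the raw scale the miR-200c arrays read 65.1 and 73.1 units, against 103.8 on the control, where the detection limits were 41.7, 49.4 and 54.3. The groups did not overlap, but the nearest array, miR-21 methylated, was only 0.24 above the higher miR-200c value.

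The filament crosslinkers PLS3 and FLNA differed in brightness, so the sizes of their differences are not compared. On the miR-200c methylated and native arrays PLS3 was at 5.90 and 4.85 times the detection limit, and FLNA at 1.89 and 1.77. PLS3, plastin 3, which packs filaments into tight bundles, measured 7.95 on the miR-200c methylated and 7.9998 on the native array, against 9.43 on the control. The other 6 arrays lay at 9.34 to 9.72. Its second probe gave 7.27 and 7.21 on the miR-200c arrays, against 8.64 on the control, so both probes showed a similar difference. FLNA, filamin A, which joins filaments into loose networks, measured 6.51 and 6.65 on the miR-200c methylated and native arrays, against 7.001 on the control. The let7a-labelled methylated array was at 6.55, inside the miR-200c range, and the other 5 miRNA arrays were at 6.82 to 7.18. FLNA was the only one of the 14 probes for which the miR-200c arrays overlapped the other 7. Of all 17684 kept probes 10.2% had both miR-200c arrays below the other 7, and the 10 genes were chosen for low values there.

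TAGLN and CNN3 belong to the calponin family, which lies along the sides of filaments and is known from contractile cells. TAGLN, transgelin, measured 6.51 on the miR-200c methylated and 6.49 on the native array, against 7.75 on the control and 7.48 to 7.87 on the other 6. Its second probe gave 6.51 and 6.61 on the miR-200c arrays, against 7.55 on the control. CNN3, calponin 3, measured 9.88 on the miR-200c methylated and 9.09 on the native array, against 11.16 on the control. CNN3 also varied elsewhere, at 10.50 on miR-21 methylated and 11.94 on miR-17 native, with the other 4 miRNA arrays at 11.20 to 11.64. TAGLN was thus steady outside the miR-200c arrays, whereas CNN3 spread over 1.45 log2 units among the other 6 miRNA arrays.

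MSN and MARCKS tie actin to the plasma membrane. MSN, moesin, measured 6.45 on the miR-200c methylated and 6.61 on the native array, against 7.82 on the control and 7.67 to 8.45 on the other 6. Its dimmer probe gave 6.48 and 6.49 on the miR-200c arrays, against 6.76 on the control. Both probes were lower on the miR-200c arrays, but the dimmer one lay close to the blank spots throughout, at 1.56 to 2.86 times the detection limit, and its difference was much smaller. MARCKS, a protein kinase C substrate that binds membrane and actin, measured 6.91 and 6.94 on the miR-200c methylated and native arrays, against 7.49 on the control and 7.53 to 7.79 on the other 6.

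PPM1F is a phosphatase that acts on kinases upstream of actin rather than on the filament. It measured 6.56 on the miR-200c methylated and 6.63 on the native array, against 7.45 on the control. The other 6 arrays were all above the control, at 7.75 to 8.23. PPM1F therefore lay 0.83 to 0.89 below the control with miR-200c, while the model below, which sets miR-200c against the other miRNAs, gave -1.36. The control was below each of those 6 arrays for MARCKS too, and for 14.8% of all features.

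**Figure D1:**
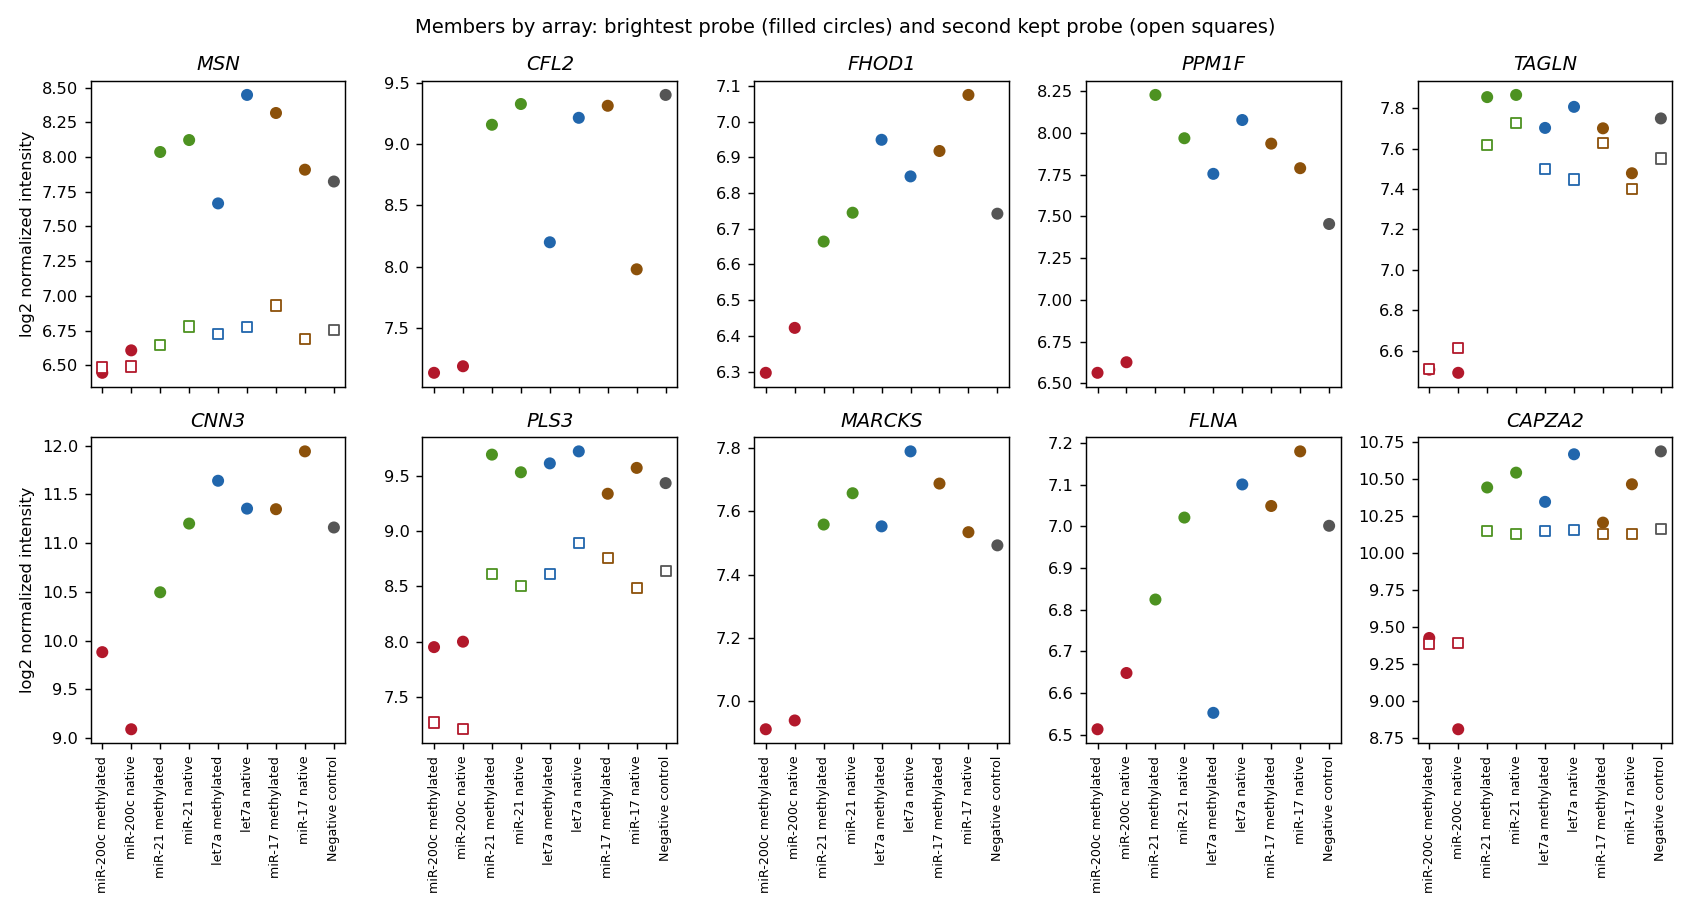
Log2 normalized intensity of the 10 genes on each of the 9 arrays, 1 panel per gene, each with its own vertical scale that does not start at 0. Filled circles are the brightest probe and open squares the second kept probe, coloured by miRNA. The miR-200c arrays (left, red) are the lowest for 13 of the 14 probes, beside 10.2% of all kept probes, and the genes were chosen for this. CFL2 shows a further pair of low arrays.

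From the negative control, all 10 genes were lower on both miR-200c arrays. On the miR-200c methylated array 6 of 10 were lower by at least 2-fold, beside 0.529% of all features, and on the native array 6 of 10, beside 0.678%. The genes were chosen for this difference, so nothing is read from these shares. The median log2 difference was -1.25 on the methylated and -1.24 on the native array, where the median of all features was 0.01 and 0.02. The 4 genes short of 2-fold were PPM1F, MARCKS, FLNA and FHOD1.

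How much of a dim transcript's difference is seen depends on the background. With the mean of the blank spots subtracted in place of the model-based correction, FHOD1 was at 46.7% and 60.1% of the control on the miR-200c methylated and native arrays, against 73.4% and 80.1% in the values above. TAGLN was at 23.0% and 22.4% by subtraction and at 42.2% and 41.8% above, and MSN at 19.4% and 25.4% by subtraction and at 38.5% and 43.0% above. CFL2 was at 13.97% and 14.8% by subtraction and at 20.8% and 21.6% above. FLNA was at 50.6% and 62.6% by subtraction and at 71.3% and 78.3% above. PLS3, a brighter gene, was at 30.4% and 31.7% by subtraction and at 35.8% and 37.0% above. The differences on the log2 scale used here were thus smaller than by subtraction, by unequal amounts, and do not rank the members.

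On the arrays without miR-200c the same genes lay closer to the control. The number below the control was 5 of 10 on miR-21 methylated, 2 on miR-21 native, 5 on the let7a-labelled methylated array, 2 on let7a native, 4 on the miR-17-labelled methylated array and 3 on miR-17 native, where 45.1% to 49.1% of all features were below it. Their median log2 difference was -0.01 on miR-21 methylated, 0.07 on miR-21 native, 0.01 on the let7a-labelled methylated array, 0.15 on let7a native, 0.11 on the miR-17-labelled methylated array and 0.11 on miR-17 native. Medians of all features on these arrays were between 0.0022 and 0.013. These 6 differences share 1 control array.

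CFL2 alone of the 10 was lower by at least 2-fold on any of these 6. It was at -1.20 on the let7a-labelled methylated array and -1.42 on miR-17 native, where 0.485% and 0.541% of features were as low. It was at -0.19 on let7a native (0.230% of features lower by 2-fold) and -0.09 on the miR-17-labelled methylated array (0.218%). No member was so low on miR-21 methylated, where 0.156% of features were, or on miR-21 native, where 0.0560% were.

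**Figure D2:**
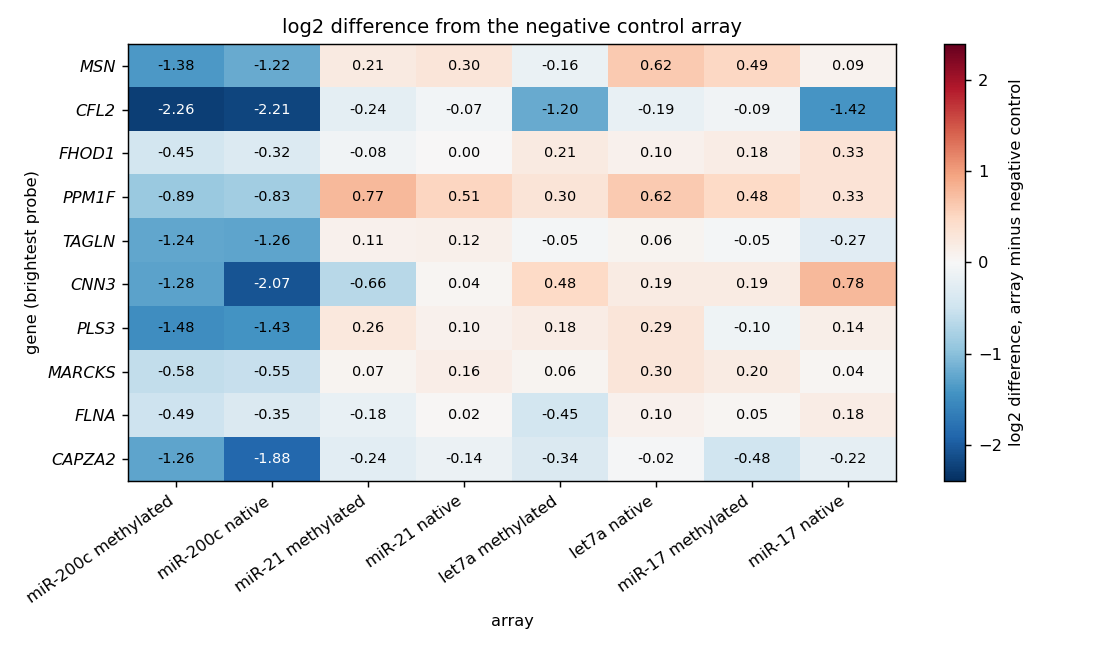
Log2 difference of each miRNA array (columns) from the negative control array, for the brightest probe of the 10 genes (rows), with blue for lower and red for higher. The 2 miR-200c columns are below 0 in every row, from -0.32 to -2.26, and CFL2 is also at -1.20 and -1.42 in the columns of let7a methylated and of native miR-17, as labelled.

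A limma model with miRNA and form as terms was fitted to the 8 miRNA arrays, without the control. It put a size and an error on differences between miRNAs and between forms, not on differences from the control. For the chosen contrast, miR-200c minus the mean of the other 3 miRNAs, the members' estimates ran from -1.84 (SE 0.30, n = 2 against 6 arrays) for CNN3 to -0.37 (SE 0.094) for FLNA. PLS3 was at -1.60 (SE 0.12), TAGLN at -1.24 (SE 0.091) and FHOD1 at -0.51 (SE 0.066). CFL2 was at -1.70 with a larger SE of 0.39. Its methylated minus native difference was -1.01 in the pair labelled let7a and 1.33 in the pair labelled miR-17, which enlarges that SE. The median over the 10 was -1.35, against 0.01 over all features. Without the 2 methylated arrays in doubt CFL2 was at -1.61, CNN3 at -1.91, CAPZA2 at -1.51 and FLNA at -0.43. Both miR-200c arrays lay below each of the other 7 for 9 of the 10 genes, and for 10.2% of all features.

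Whether the 10 genes also differed among the other 3 miRNAs was a separate question, since that comparison holds no miR-200c array. Limma's F test over miR-21, let7a and miR-17 passed none of the 10, with an adjusted p of 0.99989 for each, and 0% of all features. At an unadjusted p under 0.05 it named 1 of the 10, FHOD1, and 679 of 16072 features, or 4.22%. FHOD1 was 0.29 (SE 0.081) higher with miR-17 and 0.19 higher with let7a than with miR-21. The 2 methylated arrays in doubt enter this test under their labels.

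Without those 2 arrays CFL2 passed. It was lower on the array labelled miR-17 native than on the miR-21 arrays by an estimate of -1.32 (SE 0.15, limma F adjusted p = 0.00351), and let7a native differed from miR-21 by -0.08. In that fit 4.78% of all features passed and 1 of the 10 members did. The fit has 6 arrays and 1 residual degree of freedom, let7a native and miR-17 native stand alone in it, and both are assumed to vary like the other arrays. It also takes the native let7a and miR-17 labels as they stand, which are as much in doubt as the methylated ones. Among the methylated arrays the lower CFL2 value was on the one labelled let7a, 8.20 against 9.31 on the one labelled miR-17, so the miRNA behind the difference cannot be told from the labels. CNN3 was 1.11 higher on the array labelled miR-17 native than with miR-21 without passing (SE 0.36, limma F adjusted p = 0.219).

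Methylated and native oligonucleotides were compared over the 4 pairs, a contrast that did not choose the members. None of the 10 genes passed limma's threshold, with an adjusted p of 0.99996 for each, and 0% of all features passed. At an unadjusted p under 0.05 limma gave 1 of the 10, FLNA, beside 0.678% of features. FLNA was lower by an estimate of -0.25 (SE 0.081, 95% interval -0.45 to -0.059) and was lower in 4 of 4 pairs, but did not hold after adjustment. The estimate was -0.17 without the 2 arrays in doubt and -0.15 without either array labelled let7a, the pair with the largest FLNA difference. Intervals for the other 9 all included 0. The narrowest, for FHOD1, ran from -0.20 to 0.07, and the widest, for CFL2, from -0.77 to 0.82, so a 1.5-fold effect of either sign would lie inside the CFL2 interval.

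Within the miR-200c pair, 8 of the 10 genes differed by less than 0.17 between the methylated and the native array. CNN3 and the brighter CAPZA2 probe were the other two, at 0.79 and 0.62 higher on the methylated array. For CNN3 that is 41.2% of the control on the methylated and 23.8% on the native array. The second CAPZA2 probe was at -0.01, so the 2 probes of that gene give different answers, and CNN3 had 1 probe. A 2-fold difference in either direction was seen for none of the 10 and for 0.0809% of features in this pair. The positions of the probes in the transcripts are not given in the sources used here.

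CNN3 was lower on the methylated array in 2 other pairs, at -0.70 with miR-21 and -0.59 with miR-17, and higher in the pair labelled let7a, at 0.29. None of the 10 differed by 2-fold in the miR-21 pair, where 0.0996% of features did. CFL2 was at -1.01 in the pair labelled let7a and at 1.33 in the pair labelled miR-17, where 0.809% and 0.821% of features differed by 2-fold in either direction. Such opposite differences, each of at least 2-fold, were found for 46 of 16072 features, or 0.286%. MSN had the same signs in these pairs, at -0.78 and 0.41, but its differences were smaller. In the miR-200c and miR-21 pairs, whose labels fit their profiles, CFL2 differed by -0.05 and -0.17.

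**Figure D3:**
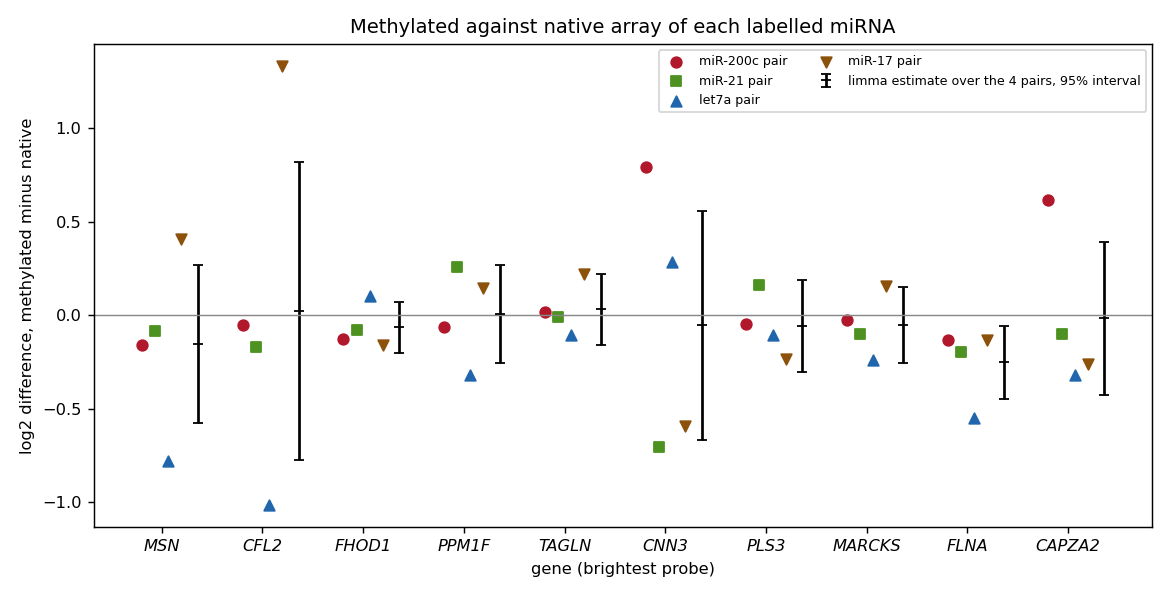
Log2 difference, methylated minus native, of the brightest probe of each gene, with 1 coloured symbol per labelled miRNA pair and, in black, the limma estimate over the 4 pairs with its 95% interval. CFL2 has the widest spread, from -1.01 to 1.33, and only the FLNA interval leaves out 0.

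Of 27 listed relatives 21 were tested, and 0 passed limma's threshold with miR-200c against the other miRNAs, where 2.00% of features passed as lower and 1.08% as higher. At an unadjusted limma p under 0.05 there were 6 of the 21, where 9.03% of features were lower and 8.51% higher. EZR, DIAPH1, DAAM1 and FMNL2 were higher, and LCP1 and MARCKSL1 lower. The median over the 21 was -0.04. EZR, ezrin, a relative of MSN, was at 0.36 (SE 0.13, limma adjusted p = 0.212), and CFL1, the main cofilin of non-muscle cells, at -0.22 (SE 0.13) beside -1.70 for CFL2. TAGLN2 was at -0.02 and CNN2 at -0.38, the bundling proteins PLS1 and LCP1 at -0.15 and -0.53, and MARCKSL1 at -0.47. MARCKSL1 was nonetheless above the negative control on both miR-200c arrays, by 0.08 on the methylated and 0.18 on the native one, so its estimate comes from the higher level on the other miRNA arrays. FLNC was at 0.02. CAPZA1 and CAPZB, further subunits of capping protein, were at -0.35 and 0.02. Other relatives lay on either side of the control on the miR-200c methylated and native arrays. CAPZA1 was at -0.41 and -0.81 from the control and LCP1 at -0.56 and -0.46. EZR was at 0.35 and 0.47 and the formin DAAM1 at 0.42 and 0.22. These examples were picked after their values were seen. Among those not tested, RDX, FHOD3, INF2, TAGLN3 and CNN1 had no kept probe with their symbol.

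No formin passed. DIAPH1, a formin that elongates filaments, was at 0.26, DAAM1 at 0.22, FMNL2 at 0.12, DIAPH2 at 0.02, FMNL3 at -0.04, DIAPH3 at -0.07 and FMNL1 at -0.09. NF2 was at -0.07, DSTN at -0.07, CAPZA3 at -0.02 and PPM1E at 0.02. Without the 2 arrays in doubt LCP1 was at -0.60, CAPZA1 at -0.53 and EZR at 0.43. In that fit let7a native and miR-17 native stand alone, so only the sizes are given here.

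Beyond the relatives, 80 other actin regulators were listed and 70 tested. With miR-200c 7 fell, 0 rose and 63 did not pass, that is 10.0% lower beside 2.00% of all features. The lists were drawn up with earlier results of these data known, so this share can reflect the choice of genes, and they leave out the 10 genes because those are low, which biases what remains upward. FSCN1, fascin, which bundles filaments in protrusions, fell by 1.34 (SE 0.17, limma adjusted p = 0.0178), with -1.20 and -1.25 from the control on the methylated and native arrays. ARPC2, a subunit of the Arp2/3 complex that branches filaments, fell by 0.73 (SE 0.10, limma adjusted p = 0.0213). TLN1, talin 1, which links integrins to actin, fell by 0.51 (SE 0.068, limma adjusted p = 0.0185). The other 4 were the filament-end cap TMOD3 at -0.45, EPS8 at -0.31, TMOD1 at -0.22 and the kinase ROCK2 at -0.16. TLN1, EPS8, TMOD1 and ROCK2 were dim, at 5.96 to 6.41 on the miR-200c arrays, where FHOD1 was at 6.30 and 6.42.

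The actins themselves did not pass in the fit to all 8 miRNA arrays. There ACTB was at -0.17 and ACTG1 at -0.04, and ACTA2 at -0.44 (SE 0.12, limma adjusted p = 0.116). The median over the 70 was -0.15 in that fit. Without the 2 arrays in doubt ACTA2 was again at -0.44 and did pass, but let7a native and miR-17 native then stand alone. The count of 7 rests on few arrays: it was 0 without the miR-200c methylated array, 0 without the miR-200c native array, and 0 without either miR-21 array. It was larger without let7a native and without the 2 arrays in doubt. In each of these fits the count over all features fell or rose as well. The changes are therefore not read as a trait of the regulators.

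**Figure D4:**
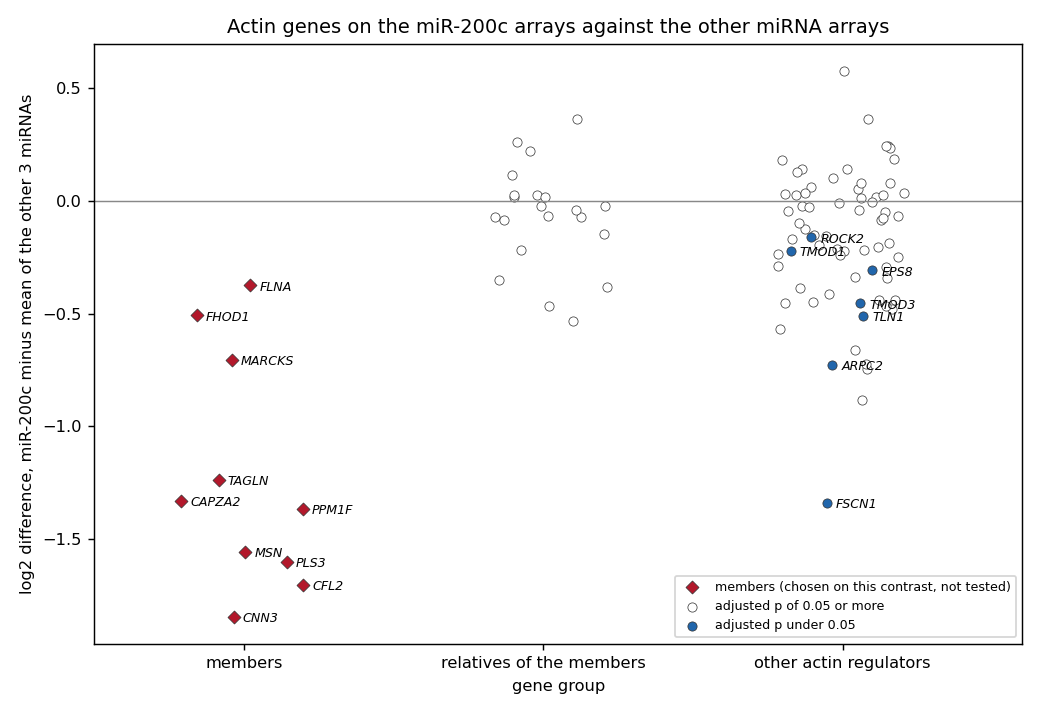
Log2 difference, miR-200c minus the mean of the other 3 miRNAs, for the 10 members (red diamonds, chosen on this contrast and not tested), 21 relatives and 70 other actin regulators; filled blue circles have a limma adjusted p under 0.05 and open circles do not, and sideways spread is only for display. All 7 blue circles are below 0, led by FSCN1 at -1.34, and no relative is blue.

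Over the other 7 arrays the 45 pairs of members had a median Pearson r of 0.16, from -0.89 to 0.93, with 27 of 45 above 0. FHOD1 and CNN3 had r = 0.93, MSN and MARCKS r = 0.90, and FHOD1 and TAGLN r = -0.89, pairs picked after their values were seen. These are descriptions over 7 points that share arrays, and the genes differ in brightness. Over all 9 arrays the named genes most like the members' mean profile were PSAT1 (r = 0.998), CASD1 (r = 0.996), SEC23A (r = 0.992), CNIH4 (r = 0.991) and TMX1 (r = 0.990). That profile is set mainly by the miR-200c arrays on which the members were chosen. Centred, it was -0.90 and -0.99 on the methylated and native ones and 0.13 to 0.44 elsewhere. A gene low on those arrays alone thus has a high r, and these are the highest of all named genes. From the control PSAT1 was at -0.61 and -0.68 and TMX1 at -2.28 and -2.49 on the miR-200c methylated and native arrays.

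Promoter sequence was read because many genes of this kind are driven by serum response factor, which binds the CArG box. RefSeq (GRCh38.p14) held 13 promoter windows for 9 of the 10 genes, each from 250 bases before to 50 after a start. TAGLN had no window, so the counts below do not cover it. The CArG box was found in 1 of the 13, that of FLNA, and in 1.29% of 35116 windows. The window of FLNA at chrX:154374585-154374884, minus strand, is shown with the box in capitals.
FLNA: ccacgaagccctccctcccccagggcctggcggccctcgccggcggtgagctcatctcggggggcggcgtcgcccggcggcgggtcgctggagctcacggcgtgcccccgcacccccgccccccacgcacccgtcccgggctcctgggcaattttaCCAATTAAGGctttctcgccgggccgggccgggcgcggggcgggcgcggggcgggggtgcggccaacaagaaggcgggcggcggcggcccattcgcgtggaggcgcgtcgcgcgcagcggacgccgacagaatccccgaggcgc
The box begins 94 bases before the start, and FLNA was the member with the smallest estimate with miR-200c. The motif GGAATG, bound by TEAD factors, was in 1 of 13 windows (CNN3) and in 14.03% of all. CAGGTG, an E-box that ZEB1 can bind, was in 2 of 13 (CAPZA2 and PPM1F) and in 20.59% of all, and GGGCGG, a GC box, in 11 of 13 and 44.95% of all. Each motif was searched on both strands. A match is a description of letters, not a site in use.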

How the data were processed

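Per the file headers, the deposited scanner files give, for 27456 spots an array, a raw median intensity at 635 nm (Cy5) without background subtraction. The authors' deposited table of processed values, an intensity per probe scaled to a median of 25, was used only as an alternative; no source used here states its making. Intensities were corrected with limma normexp (offset 50; limma 3.58.1, R 4.3.3), then quantile normalized across arrays and log2 transformed. Probes had to exceed the blank mean plus 2 SD (2680 blank spots) on at least 5 arrays; 9 probes with an outlier mark were left out. Of 24460 probes 20236 had 1 gene symbol, 2899 of them updated through RefSeq synonyms, while 4224 with several or no symbols were left unnamed.

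The additive limma model over 8 miRNA arrays (miRNA and form, intensity trend, 3 residual degrees of freedom) used a Benjamini-Hochberg threshold of 0.05 over 16072 features. No label says whether arrays come from separate cultures, so the p-values reflect spread among these arrays alone, which may be technical. Pairing of methylated and native arrays comes from the miRNA named in the labels, where profile correlations were 0.70 for miR-200c, 0.46 for miR-21, -0.22 for let7a and -0.16 for miR-17. The number of arrays limits the precision. The script was tested on simulated data.

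Members and lists were chosen with earlier results of these data known. Named were the 10 members with every kept probe, their relatives, and of the other regulators the 3 lowest and the 3 highest past the threshold (none was higher), plus the 5 genes of most similar profile and ZEB1; the 4 further regulators past the threshold and the actins were named after their values were seen. 1 listed relative is not reported here.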

Additional observations from a re-analysis of the deposited data

Results flagged for a closer look

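CFL2 and CNN3 had differences between methylated and native arrays that ran opposite ways under different miRNAs, each by at least 0.5 on the log2 scale. For CFL2 the difference was -1.01 in the let7a pair and 1.33 in the miR-17 pair, the pairs in which the methylated and native labels go against each other. For CNN3 it was 0.79 in the miR-200c pair, -0.70 in the miR-21 pair and -0.59 in the miR-17 pair. With 1 array in each group the difference between pairs was not tested.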

How the results depend on the processing

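The miR-200c medians moved with the background correction and the probe rule. From the control they were -1.455 and -1.82 (methylated and native) with the blank mean subtracted, -1.45 and -1.81 with the authors' processed values, and -0.96 and -0.96 with the mean of the kept probes; with offset 16 the native one was -1.58. Against the other miRNAs the median was -1.89, -1.89, -1.08 and -1.70 under these 4 settings, and -1.44 to -1.26 when leaving out 1 array. Members lower by 2-fold numbered 5 to 8 of 10 on the miR-200c methylated array and 5 to 7 on the native one. With no intensity trend 3 other regulators were lower and 187 features, against 7 and 321. Leaving out 1 array gave 0 to 11 regulators lower, 0 to 1 higher, and 0 to 553 features lower, with 0 to 1 feature past the F test among the other miRNAs. Without the 2 methylated arrays in doubt, 2 features passed for the form, 768 the F test (1 member), and 1240 were lower with miR-200c, with 2 relatives lower and 1 higher and 20 regulators lower and 4 higher. Leaving out 1 array, the estimate for methylated minus native took both signs for 8 of the 10 members (all but FHOD1 and FLNA) and never passed. The larger changes of sign were MSN (0.053 without either let7a array; -0.34 to 0.053), CFL2 (-0.41 without either miR-17 array; -0.41 to 0.37), and PLS3 (0.055) and CAPZA2 (0.26) without the 2 arrays in doubt. With no replicate block (no miRNA term for the pairs) 0 members and 0 features passed. Dim probes limit FHOD1, FLNA, PPM1F and both probes of MSN and of TAGLN, which lay at 1.48 to 1.97 times the detection limit on the miR-200c arrays.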
